A study of Mus musculus with 6 samples.

Results

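The nuclear-encoded subunits of the mitochondrial respiratory chain and of ATP synthase were examined in obstructed mouse kidneys with and without the microRNA miR-92b. Members were the rows of the count table whose symbol begins with Nduf and a subunit letter and number, Sdh and a letter from a to d, Uqcr, Cox with a number from 4 to 8, or Atp5. Symbols holding -ps, for pseudogene, were to be left out, but 0 matched, and copies named otherwise stayed in. The rule found 87 of the 34714 genes in the table: 40 of complex I, 4 of complex II, 8 of complex III, 18 of complex IV and 17 of complex V. The study holds 6 bulk RNA-sequencing libraries from kidney, 3 from wild-type C57BL/6J mice and 3 from global miR-92b knockout mice on a C57BL/6JGpt background. All mice were males of 8 weeks that underwent unilateral ureteral obstruction (UUO), in which the ureter of the left kidney is tied and the kidney becomes fibrotic. The ligated kidneys were taken 10 days later in both groups, so no unobstructed kidney enters the comparison as the samples are labelled. The protocol text in the labels also calls ligated kidneys nonfibrotic controls, which conflicts with the label of obstruction on all 6 libraries, and the sample labels were followed. The deletion is present in every cell of the knockout mouse. The labels do not say whether each library is from a separate mouse, so p-values measure only the spread between these libraries.

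The respiratory chain passes electrons from NADH (complex I) and succinate (complex II) through ubiquinone, complex III and cytochrome c to oxygen at complex IV, and complexes I, III and IV pump protons across the inner mitochondrial membrane. ATP synthase (complex V) lets the protons flow back and makes ATP. Complexes I, III, IV and V mix subunits from the nucleus with a few from the mitochondrial genome, whereas complex II is wholly nuclear. The proximal tubule, which reabsorbs most of the filtered solutes, is rich in mitochondria and relies on oxidative metabolism. The table holds 0 rows of mitochondrially encoded genes and 0 rows for Mir92b, so neither the other subunits of these complexes nor the deletion itself could be checked in it.

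Total counts ran from 38738204 to 51932509 per library, and the members took between 0.895% and 1.46% of them. Wild-type library 3 and knockout library 3 stood apart in their proximal tubule markers: the summed level of 15 such markers was 7072, 6991 and 19706 CPM (counts scaled to a common library size by TMM) in wild-type libraries 1, 2 and 3, and 10467, 6333 and 3211 CPM in knockout libraries 1, 2 and 3. The 8 fibroblast markers summed to 3739, 2473 and 1776 CPM in the wild type and 2428, 4554 and 6987 CPM in the knockout. Both sets overlapped between the groups. The 7 macrophage markers summed to 1243 to 1339 CPM in the wild type and 1553 to 1860 CPM in the knockout, with no overlap. None of these markers was at 0 in every library. The medians of the members, of each complex and of the other mitochondrial lists are therefore also given without replicate 3 of both groups. Wild-type library 1 also stood apart, with the lowest library quality weight in limma-voom. It was 0.375, against 0.451 for wild-type library 3, 0.615 for knockout library 3 and 1.20 to 2.88 for the others.

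Because the deleted gene encodes a microRNA, its sequence and its matches among the members are shown. A microRNA pairs with 3' untranslated regions (3' UTRs) mainly through its seed, bases 2 to 8, in capitals in the RefSeq sequence (GRCm38.p6, chr3:89227126-89227147, minus strand).
mmu-miR-92b-3p: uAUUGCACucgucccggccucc
Of the 81 tested members with an annotated 3' UTR, 0 held the 8mer match to the seed and 3 held a 7-base match (3.7%). Among all 15594 tested genes with a 3' UTR, 2.69% held an 8mer and 13.8% held any match. The members' 3' UTRs are short, with a median of 264 bases against 1270 bases for all genes tested. Among the 1687 tested genes whose 3' UTR is no longer than 264 bases, 0.356% held an 8mer and 2.25% held any match. The 3 members are Ndufa5, an accessory subunit of complex I, Uqcrfs1, the Rieske iron-sulfur protein of complex III, and Atp5pb, the stalk subunit b of ATP synthase. Their sites are given as transcript sequence with 10 bases on each side, read from GRCm38 with the GENCODE M21 annotation, and the capitals mark the match.
Ndufa5 site, chr6:24518684-24518690, minus strand: ggaattaaatGTGCAATtaaatgctct
Uqcrfs1 site, chr13:30540495-30540501, minus strand: gacttgaaagGTGCAATgtctttgata
Atp5pb site, chr3:105942715-105942721, minus strand: taaagcatctTGCAATAaaatgtttga
MicroRNAs usually lower the level of the transcripts they pair with. The log2 fold changes of these 3 members, given throughout as knockout over wild type, were -0.79 for Ndufa5, -0.31 for Uqcrfs1 and -0.28 for Atp5pb. All 3 values were below 0, and so were those of 78 of the 84 tested members. Only that of Ndufa5 had an unadjusted p under 0.05, and 45.2% of members and 3.52% of all genes were lower at that p. Whether miR-92b acts at these sites was not tested.

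No subunit passed the test. Of the 87 members, 84 passed the filter on low counts, and 0 of them had an adjusted p under 0.05 in edgeR's quasi-likelihood test over 18927 genes. The background was the same, with 0.0% of all genes called lower and 0.0% called higher. The smallest adjusted p of a member was 0.627 with edgeR and 0.241 with DESeq2. At an unadjusted p under 0.05, 38 members (45.2%) were lower in the knockout and 0 were higher, against 3.52% of all genes lower and 4.38% higher. The log2 fold change was below 0 for 78 of 84 members, with a median of -0.47, against a median of -0.02 over all genes tested. In 12 members (14.3%) all 3 knockout libraries lay below all 3 wild-type libraries, against 7.2% of all genes. In 0 members did they lie above, against 8.95% of all genes. The 12 included Ndufa1, Ndufa2, Ndufb1, Ndufb4b, Ndufb4c and Ndufb7 of complex I and Uqcr10 of complex III. The rest were Cox6a2 and Cox7a2 of complex IV, and Atp5g1, Atp5h and Atp5l of complex V. Several separations were near-ties between wild-type library 2 and knockout library 1. They stood at 86.0 and 85.8 CPM for Uqcr10, 115.7 and 115.3 CPM for Atp5l, and 115.4 and 114.9 CPM for Cox7a2. The gap was wider for Ndufb1 (31.9 and 29.0 CPM) and Atp5h (156 and 151 CPM). Cox6a2 lay near the floor, at 0.324 CPM in wild-type library 2 and 0.318 CPM in knockout library 3. Of the 55 tested members that overlap no other RefSeq gene, 4 (7.27%) had non-overlapping groups, close to the share of all genes, and their median was -0.47.

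These counts depended on single libraries. Wild-type library 3 was the highest of the 6 libraries for 76 of 84 members, and knockout library 2 or 3 was the lowest for 38 and 31. Wild-type library 1 lay above every knockout library for 56 members and below every one for 13. Wild-type library 2 lay above every knockout library for 12 members and below every one for 2. Without wild-type library 3 the members' median was -0.28, and 6 members (7.14%) were lower at an unadjusted p under 0.05, against 4.92% of all genes. Without replicate 3 of both groups the median was -0.22 with 64 of 84 members below 0, and 3 members (3.57%) were lower at that p, against 4.38% of all genes. Without knockout library 3 the count was 12 (14.3%, against 2.34% of all genes), without knockout library 2 it was 7 (8.33%, against 1.34%), and without wild-type library 1 it was 25 (29.8%, against 2.52%). It rose to 50 (59.5%, against 3.87%) without wild-type library 2 and to 42 (50.0%, against 3.77%) without knockout library 1. In bulk tissue, fewer cells of a type and less RNA per cell cannot be told apart.

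**Figure D1:**
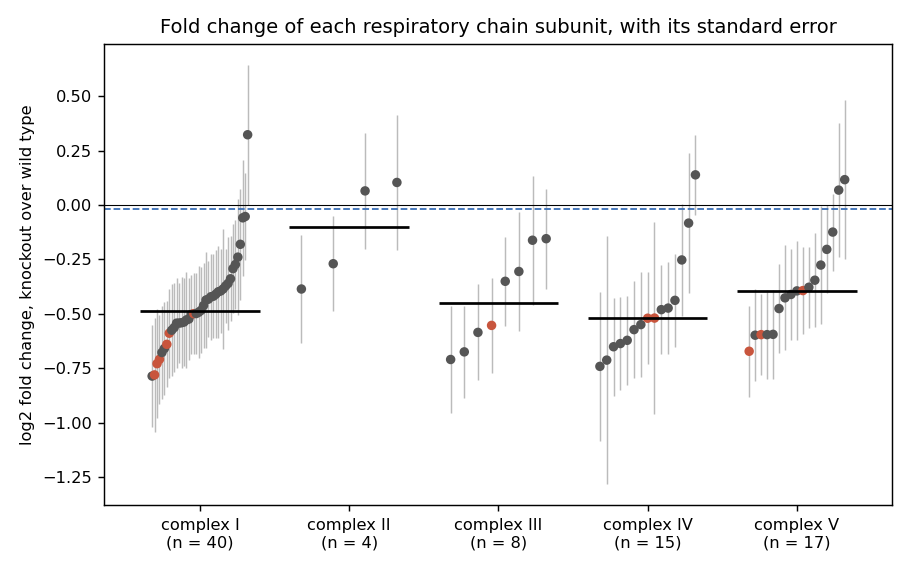
Log2 fold change, as knockout over wild type, of the 84 subunits that passed the filter, grouped by complex on the horizontal axis and ordered by value within it, with bars of 1 standard error. Black lines are the complex medians, the dashed line is the median of all genes tested, and the 12 red points are members whose groups did not overlap; 78 points lie below 0.

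Complex I, the NADH dehydrogenase, had 39 of 40 subunits below 0 with a median at -0.49. It counted 23 lower at an unadjusted p under 0.05 (57.5%, against 3.52% of all genes). The groups of 6 did not overlap (15.0%, against 7.2%). With 1 library left out, the count at that p ran from 3 without wild-type library 3 (7.5%, against 4.92%) to 28 without wild-type library 2 (70.0%, against 3.87%). The summed level of its subunits was 3406, 2950 and 4655 CPM in wild-type libraries 1, 2 and 3, and 3192, 2576 and 2555 CPM in the knockout libraries. The groups overlapped, because wild-type library 2 lay below knockout library 1. The means were 3670 ± 883 CPM and 2774 ± 362 CPM (SD, n = 3 per group). Without replicate 3 of both groups the median was -0.29.

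Within complex I, the 7 nuclear core subunits include those that carry the flavin and the iron-sulfur clusters, and the 33 others are accessory. The core subunits had a median of -0.39 and the accessory subunits -0.50. The largest core subunit, Ndufs1, was at 78.2, 112 and 158 CPM in the wild type and 133, 113 and 88.3 CPM in the knockout. The groups overlapped fully, and its log2 fold change was -0.06 ± 0.27 (SE, n = 3 per group). Ndufv1, which binds NADH, was at -0.18 ± 0.25. Both turned above 0 without wild-type library 3, at 0.23 and 0.12. Other core subunits lay lower: Ndufs3 was at -0.39, Ndufv2 at -0.46, and the iron-sulfur subunits Ndufs7 and Ndufs8 at -0.50 each.

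The accessory subunits held the lowest values of complex I. Ndufa5 (chr6:24518662-24527690) was at 90.2, 56.1 and 99.8 CPM in the wild type and 57.2, 44.0 and 41.6 CPM in the knockout. Wild-type libraries 1 and 3 were high, and wild-type library 2 lay just below knockout library 1. Its log2 fold change was -0.79 ± 0.23 (edgeR, n = 3 per group; adjusted p = 0.627), and it ranged from -0.99 to -0.43 over the alternatives. Ndufb1, a small membrane-arm subunit on chr12:101968096-101975738, was at 47.7, 31.9 and 54.6 CPM against 29.0, 24.8 and 28.3 CPM. Its groups did not overlap, and it had the smallest unadjusted p of the members (edgeR, 0.00845; log2 fold change -0.71 ± 0.20).

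Ndufa1, an X-linked subunit that complex I needs for its assembly, was at 70.1, 50.1 and 83.0 CPM against 49.1, 42.2 and 39.1 CPM. Its groups were narrowly separated, and its log2 fold change was -0.64 ± 0.20. With the other X-linked members, Ndufb11 and Cox7b, it gave a median of -0.64 for 3 genes. Ndufb4b and Ndufb4c, short copies of Ndufb4, were at -0.78 and -0.73 beside -0.68 for Ndufb4, but reads from such copies may have been split between them, so these values are uncertain. Neither copy had an annotated coding length, and they overlap Dock8 and Mroh5. Both are counted among the 40 genes of complex I, its 23 lower and its 6 without overlap. Ndufa4l2, a hypoxia-induced relative of Ndufa4, was the exception at 0.32 ± 0.32, with 10.7, 6.01 and 6.74 CPM in the wild type and 6.93, 9.04 and 13.4 CPM in the knockout. It made up 1.95% to 5.85% of the Ndufa4 and Ndufa4l2 counts in the wild type and 3.1% to 8.17% in the knockout, and the ranges overlapped. Ndufa4 itself, which is now counted as a subunit of complex IV although its name puts it in complex I, was at -0.39 ± 0.28.

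Complex II, the succinate dehydrogenase shared with the citric acid cycle, had a median of -0.10, the nearest to 0 of the 5 complexes with all 6 libraries. Its summed level was 510, 698 and 1013 CPM in the wild type and 836, 689 and 607 CPM in the knockout, with wild-type library 1 the lowest and wild-type library 3 the highest of all. Sdha, the flavoprotein that oxidizes succinate, was at 191, 338 and 452 CPM in the wild type and 416, 352 and 287 CPM in the knockout. The knockout libraries lay inside the wild-type range, and the log2 fold change was 0.10 ± 0.31. Sdhd, a membrane anchor, was at 0.07 ± 0.27. Sdhb, the iron-sulfur subunit, was at -0.39 ± 0.25, and the other anchor, Sdhc, at -0.27 ± 0.22. None of the 4 had an unadjusted p under 0.05, and the median was 0.24 without replicate 3 of both groups and 0.18 without wild-type library 3 alone. Whether complex II differs from the other complexes was not tested.

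Complex III, which passes electrons from ubiquinol to cytochrome c, had all 8 subunits below 0 and a median of -0.45. At an unadjusted p under 0.05, 4 subunits were lower (50.0%, against 3.52% of all genes). With 1 library left out, this count fell to 1 without wild-type library 3 (12.5%, against 4.92%) or knockout library 2 (12.5%, against 1.34%). It stayed at 4 without wild-type library 2 (50.0%, against 3.87%) or knockout library 1 (50.0%, against 3.77%). The groups of 1 subunit, Uqcr10, did not overlap (12.5%, against 7.2%). The summed level of the complex was 949, 943 and 1528 CPM in the wild type against 1041, 823 and 796 CPM in the knockout. Wild-type library 3 alone lay above the rest. The small subunits lay lowest. Uqcrq was at 114, 67.5 and 136 CPM against 73.1, 57.4 and 63.2 CPM (log2 fold change -0.71 ± 0.25), and Uqcrb, which lies by the ubiquinone site, was at -0.67 ± 0.21. Uqcr11, another small subunit, was at -0.58 ± 0.22. The large core proteins Uqcrc1 and Uqcrc2 were at -0.15 ± 0.23 and -0.16 ± 0.30, and Uqcrfs1 at -0.31 ± 0.27. These 3 turned to 0.12, 0.19 and 0.05 without wild-type library 3. The complex median was then -0.19, and -0.19 also without replicate 3 of both groups.

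Complex IV, cytochrome c oxidase, had 14 of 15 tested subunits below 0 and a median of -0.52. At an unadjusted p under 0.05, 6 were lower (40.0%, against 3.52% of all genes). With 1 library left out, this count was 0 without wild-type library 3 (against 4.92%), knockout library 2 (against 1.34%) or knockout library 3 (against 2.34%). It reached 9 without wild-type library 2 (60.0%, against 3.87%) or knockout library 1 (60.0%, against 3.77%). The summed level of the complex was 2312, 1935 and 3055 CPM in the wild type and 2046, 1598 and 1683 CPM in the knockout, with wild-type library 2 just below knockout library 1. The median was the lowest of the 5 complexes with all 6 libraries, but complex I lay lower without wild-type library 3 (-0.33, against -0.30 for complex IV) and without replicate 3 of both groups (-0.29, against -0.25). Cox4i1, which had the highest level per kilobase of transcript among the members (631 CPM per kb), was at 519, 452 and 695 CPM against 472, 367 and 391 CPM (log2 fold change -0.44 ± 0.21). Cox5b, a zinc-binding subunit on the matrix side, was at 172, 121 and 184 CPM in the wild type and 124, 92.6 and 93.2 CPM in the knockout. Only wild-type library 2 fell within the knockout range, and the log2 fold change was -0.62 ± 0.20 (-0.78 to -0.40 over the alternatives). Its partner Cox5a was at -0.25 ± 0.26. Cox6c and Cox7b were at -0.65 ± 0.23 and -0.64 ± 0.21, and Cox8a at -0.57 ± 0.22. Cox7a2l, which acts in joining complexes III and IV into supercomplexes, was the subunit above 0, at 0.14 ± 0.19.

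Several complex IV subunits have alternative isoforms used in muscle, brown fat, lung or testis, and in these kidneys the common isoform dominated each pair. Cox4i2, the hypoxia-linked isoform, gave 0.0761% to 0.325% of the Cox4i1 and Cox4i2 counts, and Cox6a2 gave 0.0815% to 0.208% of its pair with Cox6a1. Cox6b2 gave 2.19% to 6.36% of its pair with Cox6b1, and Cox7a1 gave 1.46% to 2.87% of its pair with Cox7a2. The Cox7a1 level was 3.60, 2.25 and 2.81 CPM in the wild type and 2.40, 1.33 and 1.45 CPM in the knockout (log2 fold change -0.74 ± 0.34). Cox7a1 and Cox6a2 are heart and skeletal muscle isoforms. The 8 skeletal muscle markers summed to 6.51 to 7.57 CPM in the wild type and 1.93 to 2.52 CPM in the knockout. Of the 7 tested markers, 5 (71.4%) were lower at an unadjusted p under 0.05, against 3.52% of all genes. The part of muscle RNA in these values was not tested. Cox8c had 0 counts in every library, Cox7b2 had 2 counts in wild-type library 2 alone, and Cox8b had 5 in wild-type library 1 and 27 in knockout library 1, and these 3 did not pass the filter.

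Complex V, ATP synthase, had 15 of 17 subunits below 0 and a median of -0.39. At an unadjusted p under 0.05, 5 were lower (29.4%, against 3.52% of all genes), and 3 were without overlap (17.6%, against 7.2%). With 1 library left out, the count at that p ran from 1 without knockout library 2 (5.88%, against 1.34%) to 9 without wild-type library 2 (52.9%, against 3.87%). The summed level of the complex was 3333, 3851 and 5887 CPM in the wild type and 4467, 3704 and 3382 CPM in the knockout, which overlapped fully. The median was -0.15 without wild-type library 3 and -0.13 without replicate 3 of both groups. The large subunits of the catalytic F1 head lay above 0. Atp5b (chr10:128083307-128090388), the beta subunit that carries the catalytic sites, was at 521, 977 and 1485 CPM in the wild type and 1272, 1071 and 891 CPM in the knockout. Wild-type library 1 was the lowest and wild-type library 3 the highest, 2.85 times wild-type library 1, so the knockout lay inside the wild-type range at a log2 fold change of 0.12 ± 0.36. The alpha subunit Atp5a1 had the same order of libraries and was at 0.07 ± 0.31. The smaller F1 subunits Atp5c1, Atp5d and Atp5e (gamma, delta and epsilon) were at -0.35, -0.20 and -0.48. The peripheral stalk, the c ring and the small membrane subunits had medians of -0.49, -0.43 and -0.41, against -0.20 for F1, with single members overlapping in value. Atp5h, subunit d of the peripheral stalk (chr11:115415691-115419919), was at 205, 156 and 227 CPM against 151, 121 and 118 CPM, with no overlap and a log2 fold change of -0.60 ± 0.19. Atp5g1, which encodes the c subunit of the rotating ring, was at 95.3, 70.6 and 117 CPM against 70.4, 53.1 and 54.3 CPM. Its groups were barely separated, by wild-type library 2 and knockout library 1, and its log2 fold change was -0.67 ± 0.21. Its ring partners Atp5g2 and Atp5g3, which encode the same mature protein, were at -0.12 and -0.43. Atp5j, coupling factor 6 of the stalk, was at -0.60 ± 0.20.

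Sums within a complex put these differences side by side. The F1 subunits summed to 1593, 2312 and 3416 CPM in the wild type and 2850, 2399 and 2079 CPM in the knockout, a ratio of means of 1.00. Atp5b and Atp5a1 made up most of this sum, with wild-type means of 994 and 827 CPM out of 2440 CPM, so the ratio mainly describes them. The 5 small membrane subunits summed to 444, 363 and 603 CPM against 376, 306 and 321 CPM, a ratio of 0.711. The F1 sum was 3.59, 6.36 and 5.67 times the membrane sum in the wild type and 7.58, 7.85 and 6.48 times in the knockout. The knockout lay above without overlap, but only barely between wild-type library 2 and knockout library 3. Complex I showed the same order, with a core to accessory ratio of 0.281, 0.346 and 0.316 in the wild type and 0.372, 0.376 and 0.351 in the knockout. The same 2 libraries were barely separated there. Other ratios took the sum of all members. Over the citric acid cycle genes it was 4.58, 3.65 and 4.10 in the wild type and 3.51, 3.31 and 3.64 in the knockout, barely separated. Over the mitochondrial import and mass genes it was 2.98, 2.64 and 2.87 against 2.69, 2.47 and 2.32, with overlap. The groups also overlapped for the ratios to cytosolic ribosomal proteins and to proximal tubule markers. These ratios were compared after the subunit values were known, and carry no test. They were not recomputed with the length trend removed, and the part of transcript length in them was not tested.

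**Figure D2:**
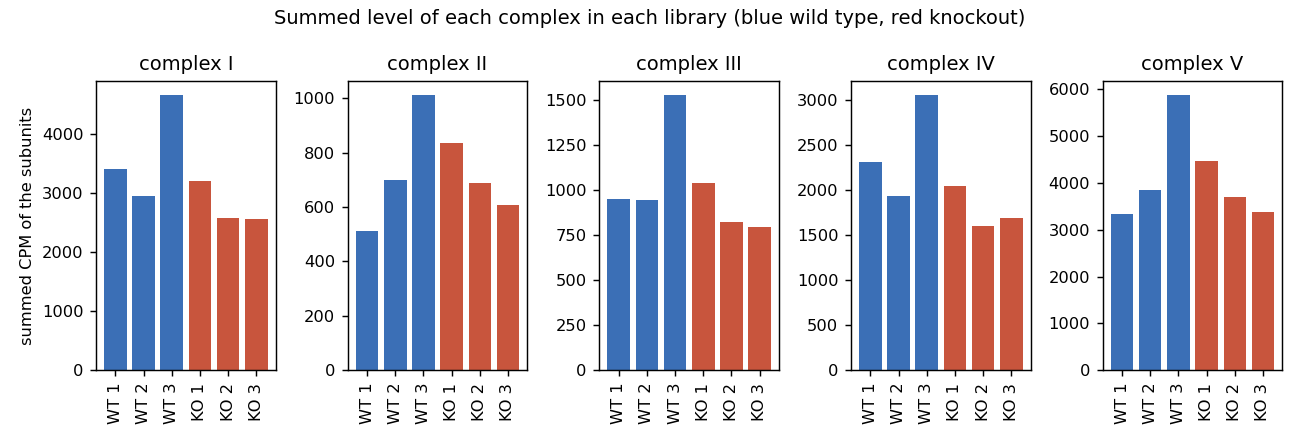
Summed CPM of the subunits of each complex in each library, with libraries on the horizontal axis and a scale from 0 in each panel (blue bars wild type, red bars knockout). Wild-type library 3 is the highest bar in every panel, and wild-type library 2 lies within the range of the knockout bars in each. Wild-type library 1 lies above that range for complexes I and IV, below it for complexes II and V, and within it for complex III.

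Transcript length moved with the fold changes. The 54 tested members with a transcript of 1 kb or less had a median of -0.51, and the 28 longer ones -0.33, and 2 tested members had no length. Atp5g1 was given 4715 bases, more than its RefSeq locus (chr11:96072793-96075694) spans. Its length is therefore uncertain, and it enters the values that follow. Over the 82 members with a length, the log2 fold change and log10 length had a Pearson r of 0.42 and a Spearman rho of 0.41. This is a description across genes of the same 6 libraries, which are not independent replicates. The same direction held for short genes of the whole table: the 1455 tested genes of 1 kb or less had a median of -0.29 with 80.8% below 0, and the longer ones 0.02. With the length trend of each library removed, the median of the 82 members was -0.23 with 71 below 0, and 7 (8.54%) were lower at an unadjusted p under 0.05, against 3.44% of all genes. Ndufb1 and Ndufb4b, which have no length, kept their uncorrected values in that fit, and with them the counts were 73 of 84 below 0 and 9 lower (10.7%), with a median of -0.24. On that scale the short members were at -0.24 and the long ones at -0.21, while other short genes with a mean of at least 20 CPM were at -0.04. The complex medians were then -0.25 for I, -0.06 for II, -0.21 for III, -0.26 for IV and -0.15 for V, where complex I includes those 2 uncorrected values. The correlation with transcript length was then -0.004. With coding length, which 81 members have, it was 0.51 before and 0.21 after the removal.

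**Figure D3:**
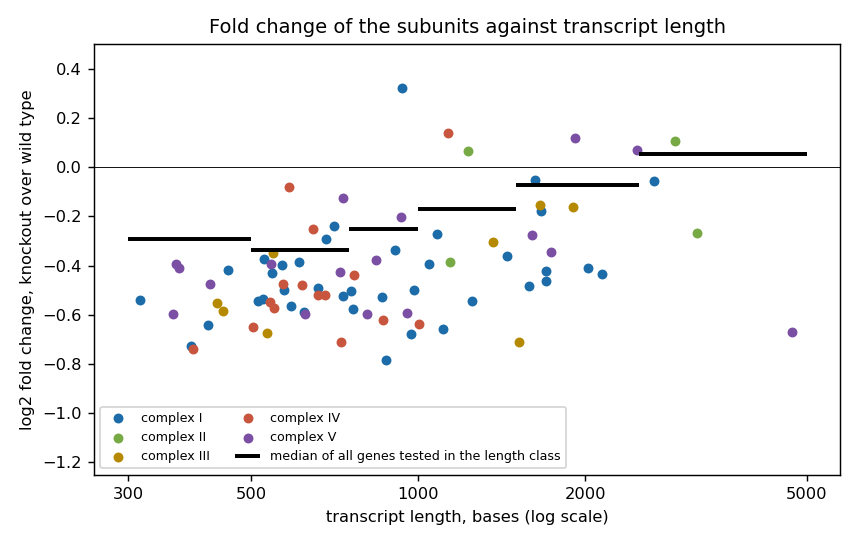
Log2 fold change, as knockout over wild type, of the 82 tested subunits with a transcript length against that length on a log scale, coloured by complex. Black bars give the median of all genes tested in each length class, which runs from -0.34 at 500 to 750 bases to 0.06 at 2500 to 5000 bases, and most subunits lie below the bar of their class.

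With all 6 libraries, the other mitochondrial lists had medians nearer to 0 than the subunits. The 52 tested assembly factors had a median of -0.15, with 42 below 0 and 10 lower at an unadjusted p under 0.05 (19.2%, against 3.52% of all genes). The groups did not overlap for 12 lower factors (23.1%, against 7.2% of all genes) and for 2 higher ones, against 8.95% of all genes. Among the 12 were Cox20 and Ttc19, which help to build complexes IV and III, at -0.72 ± 0.21 and -0.48 ± 0.13. The other 10 of the 52 factors lay above 0, up to 0.50 for Nubpl. Of 15 electron carriers and subunits outside the symbol rule, 13 were below 0 and the median was -0.23, with Cycs, the somatic cytochrome c, at -0.46 ± 0.23, Cyc1, the cytochrome c1 of complex III, at -0.25 ± 0.20, and Ndufab1, the acyl carrier protein in complex I, at -0.39 ± 0.19. The 78 mitochondrial ribosomal proteins had 72 below 0 and a median of -0.22, with 13 lower at that p (16.7%), and 29 import and mass genes had a median of -0.21. The 17 genes of the citric acid cycle and pyruvate dehydrogenase were at -0.10 with 0 at that p, and citrate synthase (Cs) was at 0.00 ± 0.18. The 21 regulators of mitochondrial biogenesis had a median of 0.01, with Ppargc1a, a coactivator of mitochondrial genes, at 0.06 ± 0.29, the transcription factor Nrf1 at 0.04 ± 0.13, Tfam, which acts on the mitochondrial genome, at -0.09 ± 0.16, and the nuclear receptor Esrra at -0.26 ± 0.15. The cytosolic ribosomal proteins, which are also short, had a median of -0.18, and 0.02 with the length trend removed. These medians also depended on wild-type library 3. Without it they were -0.05 for the assembly factors, -0.05 for the carriers, -0.08 for the mitochondrial ribosome, -0.06 for the import genes and -0.07 for the cytosolic ribosome, and the citric acid cycle turned to 0.17. Without replicate 3 of both groups they were -0.07, -0.03, -0.15, -0.04 and -0.28 in that order, with the citric acid cycle at 0.21 and the biogenesis regulators at 0.06. No gene of these lists had an adjusted p under 0.05, and none of the differences between lists was tested.

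The subunits followed the proximal tubule markers across the libraries in part. The members summed to 10510, 10376 and 16137 CPM in the wild type (mean 12341 ± 3288, SD, n = 3) and 11581, 9390 and 9023 CPM in the knockout (9998 ± 1383). Wild-type library 3 was the highest, knockout library 1 the next, then wild-type libraries 1 and 2, and knockout libraries 2 and 3 the lowest, and the proximal tubule sums had the same order of libraries. Other tubule markers had other orders, though knockout library 3 was again the lowest. Those of the thick limb and distal tubule summed to 1893, 5081 and 3786 CPM in the wild type and 5090, 3573 and 1033 CPM in the knockout. Those of the collecting duct summed to 304, 408 and 408 CPM against 375, 288 and 194 CPM. The proximal tubule sum spanned a wider range than the members did, and its markers had a median log2 fold change of -0.33 with 14 of 15 below 0. Without replicate 3 of both groups the marker median was 0.36 and the members' median went from -0.47 to -0.22. The part of tubule content in the members' values was not tested.

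**Figure D4:**
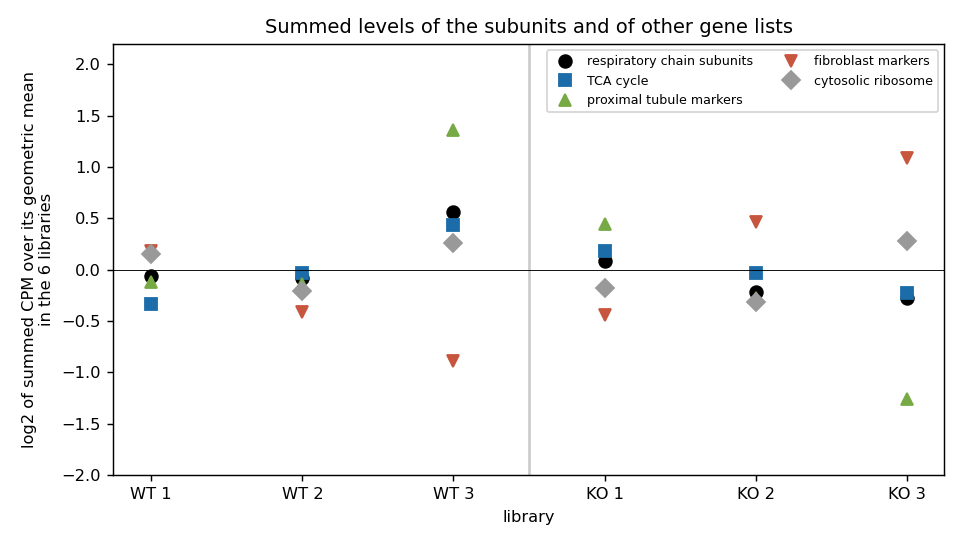
Summed CPM of the respiratory chain subunits, citric acid cycle genes, proximal tubule markers, fibroblast markers and cytosolic ribosomal proteins in each library, as log2 of the value over its geometric mean in the 6 libraries. Wild-type library 3 is the highest for the subunits (16137 CPM) and the proximal tubule markers (19706 CPM), and knockout library 3 is the lowest for both.

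Promoters are shown for 4 members, chosen after their values were seen because their fold changes differ and 3 of them hold motifs of factors known to act on respiratory genes: nuclear respiratory factor 1 (NRF1), the ETS factor GABP, the estrogen-related receptors (ERR) and YY1. RefSeq windows of 300 bases (250 before to 50 after the start, GRCm38.p6) were found for 70 members and searched on both strands. NRF1 was searched as GCGCA directly followed by TGCGC and was held by 5 of 70 members (7.14%), against 1.07% of all promoters and 1.94% of those of tested coding genes. The ETS motif CCGGAAG was held by 17 members (24.3%), against 9.93% of all promoters and 17% of those of tested coding genes. YY1 (AAGATGGCG) was held by 7 members (10.0%), against 1.64% of all promoters and 2.9% of those of tested coding genes. The ERR motif (TCAAGG directly followed by TCA) was held by 2 members (2.86%), Atp5g3 and Sdhd, against 0.466% and 0.317%. The CCAAT box, CCAAT, was held by 42.9% of members, 41.1% of all promoters and 42.4% of those of tested coding genes. The 250 bases before the start follow, 5' to 3' on the gene's strand, with the matches in capitals.
Atp5b promoter, chr10:128083057-128083306, plus strand: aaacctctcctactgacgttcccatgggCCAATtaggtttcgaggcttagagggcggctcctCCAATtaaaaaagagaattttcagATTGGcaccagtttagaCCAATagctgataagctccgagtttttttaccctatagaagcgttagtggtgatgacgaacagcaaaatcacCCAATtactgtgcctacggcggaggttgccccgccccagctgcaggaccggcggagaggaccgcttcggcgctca
Cox6a1 promoter, chr5:115348959-115349208, minus strand: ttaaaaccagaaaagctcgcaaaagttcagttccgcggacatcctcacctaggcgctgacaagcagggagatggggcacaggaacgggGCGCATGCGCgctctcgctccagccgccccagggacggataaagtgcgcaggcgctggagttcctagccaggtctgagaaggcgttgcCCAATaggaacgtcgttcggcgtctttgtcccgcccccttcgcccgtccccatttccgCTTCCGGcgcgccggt
Atp5h promoter, chr11:115419920-115420169, minus strand: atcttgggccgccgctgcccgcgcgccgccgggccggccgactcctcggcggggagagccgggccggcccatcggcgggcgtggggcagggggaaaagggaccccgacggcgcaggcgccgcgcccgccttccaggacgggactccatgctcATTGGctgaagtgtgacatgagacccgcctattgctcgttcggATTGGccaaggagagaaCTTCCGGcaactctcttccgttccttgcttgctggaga
Atp5j promoter, chr16:84834977-84835226, minus strand: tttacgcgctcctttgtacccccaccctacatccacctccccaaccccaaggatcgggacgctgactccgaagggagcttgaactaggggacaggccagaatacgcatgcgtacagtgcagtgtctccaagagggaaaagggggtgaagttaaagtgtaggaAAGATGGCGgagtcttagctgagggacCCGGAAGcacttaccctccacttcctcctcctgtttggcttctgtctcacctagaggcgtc
The Atp5b sequence holds 5 CCAAT boxes and no other motif searched, and Atp5b had a log2 fold change of 0.12. Cox6a1, at -0.47 ± 0.21, holds NRF1, ETS and CCAAT matches, Atp5h, at -0.60, holds an ETS match with 2 CCAAT boxes, and Atp5j, also at -0.60, holds an ETS and a YY1 match. These 4 do not stand for the other members. Sdhd, with ETS and ERR matches, was at 0.07 and Uqcrc1, with an NRF1 match, at -0.15, whereas Atp5g1 and Cox7b, which hold the CCAAT box alone, were at -0.67 and -0.64. Atp5j has another RefSeq start, whose window held no match. A match is a description of letters and was not tested for binding.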

How the data were processed

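The deposited table gives raw read counts, in whole numbers, for each gene symbol and library. Per the labels' protocols, total RNA was column-purified and made into mRNA-based libraries. The submitters' processing notes list GRCm38 and mm10, names of 1 build. The sources used here give no aligner, counter or use of strand, so overlapping genes (29 members overlap another RefSeq gene) and near-identical copies may share counts. The 55 tested members without such an overlap gave a median of -0.47.

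From the counts, filterByExpr kept 18927 genes, which were scaled by TMM and compared with edgeR 4.0.16 (quasi-likelihood F test, robust, group as the only term) in R 4.3.3. P-values were adjusted by Benjamini-Hochberg over all genes tested, with a threshold of 0.05. The standard error is the log2 fold change over the root of F. Transcript length is the longest RefSeq-matched GENCODE M21 transcript, or else the longest coding one. Named members are core and catalytic subunits, isoform pairs and members with the smallest p per complex. Other members were named for isoform, copy, X linkage, role or a microRNA site, and Atp5g2 and Atp5g3 were named after their values were seen, as were the assembly factors and ratios. Values of 1 core subunit are not reported here. The members and lists were chosen with earlier results of these data known. Alternatives were other scalings, DESeq2 1.42.0, limma-voom (limma 3.58.1), other filters, a length correction, a replicate block and libraries left out. The pipeline was tested on simulated data. The labels state no pairing of samples by replicate number. No library was a copy of another, the smallest chi-square per degree of freedom between libraries being 31.1.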

Additional observations from a re-analysis of the deposited data

How the results depend on the processing

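No member was called in any of the 17 fits, and the members' median log2 fold change stayed below 0 in all of them, from -0.59 to -0.22. Over all genes, 0 were called by edgeR, where 666 were lower and 829 higher at an unadjusted p under 0.05. Calls over all genes were 62 with DESeq2, 3 with limma-voom, 2 with no filter, and 1 each with the replicate block, without knockout replicate 3 and without replicate 3 of both groups. Leaving out 1 library gave 0 to 1. The cause of these differences was not tested. With limma-voom the members' median was -0.25 and 6 (7.14%) were lower at an unadjusted p under 0.05, against 6.72% of all genes.

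With 1 library left out, the median ran from -0.59 to -0.28 for the members, from -0.63 to -0.33 for complex I, from -0.28 to 0.18 for complex II, from -0.57 to -0.19 for complex III, from -0.64 to -0.30 for complex IV and from -0.54 to -0.15 for complex V. Without replicate 3 of both groups the medians were -0.29, 0.24, -0.19, -0.25 and -0.13 for complexes I to V, and with the length trend removed -0.25, -0.06, -0.21, -0.26 and -0.15. The correlations of same-numbered libraries, as deviations from their group means, were -0.40, 0.32 and -0.38. Those of differently numbered libraries ran from -0.26 to 0.48. With 3 libraries per group, these values cannot decide whether the samples were paired, and the labels state no pairing. With the replicate block the members' median was -0.45 and 33 (39.3%) were lower at an unadjusted p under 0.05, against 3.16% of all genes.

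Of 84 members, 63 kept their sign in every fit, 62 of them below 0. Among the 40 named members, 29 of 638 values reversed. With 1 library left out, these ran from -0.19 to 0.40 for Atp5a1, -0.19 to 0.53 for Atp5b, -0.17 to 0.41 for Sdha and -0.18 to 0.38 for Sdhd, from -0.46 to 0.089 for Cox5a, -0.27 to 0.23 for Ndufs1 and -0.37 to 0.12 for Ndufv1, and from -0.32 to 0.12 for Uqcrc1, -0.40 to 0.19 for Uqcrc2 and -0.48 to 0.050 for Uqcrfs1. For these 10 the lowest value came without wild-type replicate 1 and the highest without wild-type replicate 3. Cox6b2 ran the other way, from -0.29 to 0.33. Atp5a1, Atp5b, Sdha and Sdhd also reversed without knockout replicate 1 (-0.047, -0.018, -0.034 and -0.027), and Ndufs1 without knockout replicate 3 (0.085). Without replicate 3 of both groups, Cox5a, Ndufs1, Ndufv1, Uqcrc1, Uqcrc2 and Uqcrfs1 stood at 0.093, 0.37, 0.22, 0.20, 0.31 and 0.14, with Ndufa4 at 0.091, Sdhb at 0.042, Sdhc at 0.054 and Ndufa4l2 at -0.061. With limma-voom, Cox6b2 and Ndufs1 stood at 0.24 and 0.022. Removing the length trend put Cox6b2 at 0.23. The cause of these reversals was not tested. Cox4i2 and Cox6a2 were below the filter of 1 CPM in 3 libraries.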
